A study of Zea mays with 6 samples.

Results

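The miR319 guide strands of maize ovaries and the genes listed as their cleavage targets were examined. The guide strand is the arm of a miRNA duplex that is loaded into the silencing complex. Every known miRNA of the miR319 family outside the 5′ arm was taken, which gave 3 sequences of the 161 listed. The targets were the TCP genes among the degradome entries of miR319 and miR159, together with the unannotated gene GRMZM2G412073, which gave 4 genes of 113. These members were chosen from a survey of the same data, so their own levels are a description of these libraries.

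The ovaries came from the maize inbred Yu-A474 before pollination, at silking, and the ears had been bagged. A single ear of this line bears completely fused carpel (CFC) ovaries and incompletely fused carpel (IFC) ovaries, and the labels call the first kind wild-type. Both kinds were taken from neighbouring positions of mid-ear, and the replicates of each kind came from separate ear rows. The groups therefore share line and field and differ in phenotype, not in a defined genotype. Small RNA libraries were made from 2 samples of each phenotype, 4 libraries in all, and 1 degradome library per phenotype pooled both of its samples.

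miR319 is an old plant miRNA family, known from Arabidopsis for guiding the cleavage of mRNAs of class II TCP transcription factors. These factors restrain cell division at the margins of leaves and floral organs. The family is close in sequence to miR159, whose textbook targets are MYB genes of the GAMYB type. A degradome library captures the 5′ ends of uncapped mRNA fragments, and a miRNA normally leaves such an end opposite its base 10.

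The guide sequences are shown because a single base separates the abundant miR319 form from the rare ones, and few bases separate both from miR159. They are the deposited sequences, 5′ to 3′, with T for U, and capitals mark the seed, bases 2 to 8.
zma-miR319a-3p_R+1: tTGGACTGaagggtgctccct
tae-miR319: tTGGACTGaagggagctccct
osa-miR319a-3p.2-3p_R+2_1ss14TA: tTGGACTGaagggagctccctt
zma-miR159c-3p_L-1R-1: tTGGATTGaagggagctcc
zma-miR159a-3p: tTTGGATTgaagggagctctg

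All 3 miR319 guides began with T and had the same seed, TGGACTG. Positions are counted from 1 at the 5′ end. In each change the base of the reference, the sequence compared against, is given first. tae-miR319 differed from zma-miR319a-3p_R+1 by T14A alone over 21 bases. The osa-miR319a-3p.2-3p_R+2_1ss14TA form had the same T14A change and 1 further base at its 3′ end. zma-miR159c-3p_L-1R-1 differed from zma-miR319a-3p_R+1 by C6T and T14A over 19 bases. Set against tae-miR319 it differed only by C6T, a change inside the seed. The seed of zma-miR159a-3p was shifted, because that sequence starts 1 base further upstream.

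The precursors listed with these names lay on chromosomes 3 and 8, in a genome build that is not given in the sources used here. The precursor of zma-miR319a-3p_R+1 was placed at chr3:2801742-2801954 on the plus strand and had 213 bases. That of osa-miR319a-3p.2-3p_R+2_1ss14TA was at chr3:212198207-212198392, plus strand, 186 bases long. That of tae-miR319 was at chr8:147815263-147815451 on the minus strand, with 189 bases. All 3 precursors held the T14 sequence of zma-miR319a-3p_R+1, ending at bases 195, 179 and 184. The A14 sequence, over its first 19 bases, was found in the precursors of 0 of the 161 listed miRNAs. A read of the T14 form therefore cannot be assigned to 1 of the 3 loci.

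zma-miR319a-3p_R+1 carried nearly all of the miR319 guide signal and was among the most abundant miRNAs of the ovary. Its normalized expression (NE, in RPM of clean reads) was 3402 and 2664 in CFC replicates 1 and 2, and 2280 and 4014 in IFC replicates 1 and 2. In NE as deposited, the IFC libraries thus held both the lowest and the highest value, and the CFC values lay between them. The means were 3033 ± 522 in CFC and 3147 ± 1227 in IFC (SD, n = 2 each). By mean NE it stood 3rd of the 161 known miRNAs, and its place within a library was 3, 4, 3 and 2 in the same order of libraries. It made up 98.9%, 98.3%, 98.9% and 97.9% of the miR319 guide NE.

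The variant with A at base 14 was detected in every library at a level about 2 orders lower. tae-miR319 had an NE of 36.6 and 43.9 in CFC and of 26.3 and 83.7 in IFC. With the commonest low NE of a library taken as 1 read, these were 51, 50, 23 and 100 reads. The totals implied by that step are below the clean read totals the study gives, a mismatch that was not resolved. Every read count and interval of NE here holds only on that reading. On it, the exact Poisson 95% intervals of the 2 IFC libraries, 16.7 to 39.5 and 68.1 to 102, did not overlap, while those of the CFC libraries did. Intervals of this kind cover counting error only. As a share of the T14 and A14 forms together, tae-miR319 was 1.06% (Wilson 95% interval 0.810 to 1.40) and 1.62% (1.23 to 2.13) in CFC. In IFC it was 1.14% (0.763 to 1.71) and 2.04% (1.68 to 2.48). The higher share was in replicate 2 of each phenotype, and the groups overlapped.

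osa-miR319a-3p.2-3p_R+2_1ss14TA was near the limit of detection. It had an NE of 0.717 and 0.879 in CFC and of 0 and 1.67 in IFC, or 4 reads over the 4 libraries. A count of 0 in IFC replicate 1 allows an NE of up to 3.44, with 3 reads taken as the limit, a one-sided bound unlike the two-sided intervals above. A difference between the phenotypes was not detectable for this form at this depth.

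The opposite arm was represented by ata-miR319-5p_R-2_1ss10TC, which is not a guide strand. Its NE was 1.43 and 3.51 in CFC and 5.73 and 5.44 in IFC, so both IFC libraries were above both CFC libraries. These values were 2, 4, 5 and 6.5 reads, and their exact Poisson 95% intervals overlapped, from 0.174 to 5.18 in CFC replicate 1 and from 1.86 to 13.4 in IFC replicate 1. The difference was not called, with a log2 fold change of 0.99 ± 0.79 (SE; limma adjusted p = 0.999). The summed guide NE was 403 to 2398 times the NE of this 5p sequence over the 4 libraries. Both phenotypes carried far more of the guides than of this sequence, which does not occur as such in the precursor listed for it. The 5′ arm as a whole was not measured by it.

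**Figure D1:**
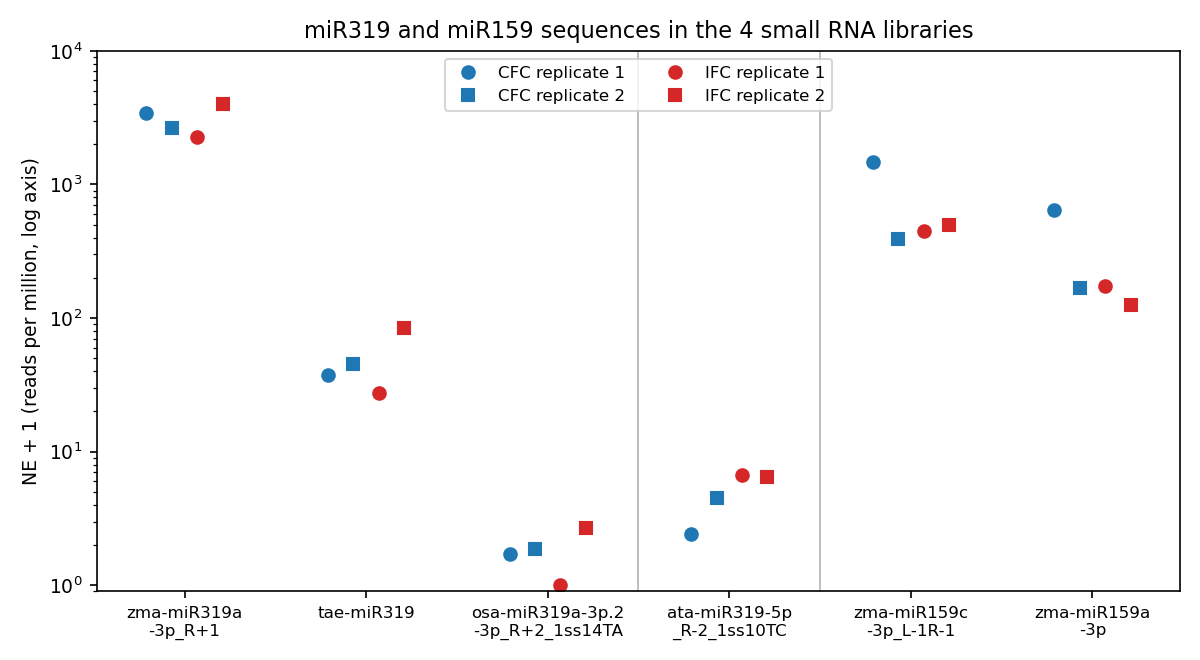
NE plus 1, in RPM on a log axis, of the 3 miR319 guides, the listed 5p sequence and the main miR159 guides, with 1 point per small RNA library (blue CFC, red IFC; circles replicate 1, squares replicate 2). zma-miR319a-3p_R+1 lies between 2280 and 4014 with the phenotypes overlapping, and both miR159 guides have their highest point in CFC replicate 1.

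The question put to the small RNA data was whether the level of these guides differed between IFC and CFC ovaries. None of the 3 guides was called. For zma-miR319a-3p_R+1 the log2 fold change of IFC over CFC was 0.01 ± 0.79 (SE; adjusted p = 0.999, limma), with a 95% interval of -1.67 to 1.69. For tae-miR319 it was 0.23 ± 0.83 (adjusted p = 0.999), and the interval ran from -1.53 to 1.99. For osa-miR319a-3p.2-3p_R+2_1ss14TA it was -0.14 ± 0.82 (adjusted p = 0.999). These fold changes are on the log2(NE + 1) scale, which understates changes of low miRNAs. Of the 145 known miRNAs tested, 0 were called (0%) and 1 had an unadjusted p under 0.05, while 7.25 would be expected at that level. The median log2 fold change of all 145 was -0.02. For zma-miR319a-3p_R+1 the value was 0.42 without IFC replicate 1 and -0.40 without IFC replicate 2, so its direction depended on a single library. In this fit the interval of this guide leaves changes of up to about 3 times in either direction unresolved. Its width rests largely on the spread pooled over the 145 miRNAs.

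In 0 of the 3 guides did the values of the phenotypes separate. Over all tested miRNAs, 33 of 145 (22.8%) had both IFC values above or both below the CFC values, 12 of them higher and 21 lower in IFC. Summed over the 3 guides, miR319 NE was 3439 and 2708 in CFC and 2306 and 4100 in IFC. The mean log2 difference of these sums was 0.01 (exact two-sided permutation p = 1). With 2 libraries against 2 this test cannot give a p below 0.333.

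The summed NE of all known miRNAs was lower in IFC replicate 1, at 19255, than in the other 3 libraries, at 26590 to 28278, and 42 miRNAs were listed at 0 there against 24 to 26. Taken as a share of the known miRNA NE, the miR319 guides held 12.2% and 9.58% in CFC and 12.0% and 15.4% in IFC. On this scale the CFC and IFC ranges still overlapped, with a mean log2 difference of 0.33 (exact permutation p = 0.667). A library factor was also taken as the median ratio of NE to its geometric mean over the libraries, for 104 miRNAs present in all of them. These factors were 1.03 and 1.02 in CFC and 0.793 and 1.24 in IFC. The libraries with the lowest and the highest NE of zma-miR319a-3p_R+1 thus had the lowest and the highest factor. With NE divided by the factors, the mean log2 difference of the summed guides was 0.06. The part of these library differences in the result was not tested. The anther phasiRNA triggers miR2118 and miR2275, taken as markers of another floral tissue, had 7 sequences with a summed NE of 43.4 and 19.3 in CFC and 33.2 and 49.4 in IFC. Of these 7, 1 and 3 were at 0 in CFC and 4 and 3 in IFC.

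The miR159 guides were less abundant than miR319 in all 4 libraries and had another profile. Their summed NE was 2123 and 554 in CFC and 620 and 621 in IFC, so CFC replicate 1 stood above the other 3. The ratio of summed miR319 to summed miR159 guide NE was 1.62 and 4.89 in CFC and 3.72 and 6.60 in IFC. The ratios of the phenotypes overlapped (exact permutation p = 0.667). Between libraries of equal replicate number the ratio was higher in IFC in both cases, but the sources do not say that equal numbers mark the same ear row, and this was not tested. zma-miR159c-3p_L-1R-1 is the miR159 form that is also listed for TCP genes. As deposited, it had an NE of 1469 and 387 in CFC and of 446 and 496 in IFC. The miR159 sums and ratios here follow the deposited columns, while the study lists this form as higher in IFC, a conflict that was not resolved. zma-miR319a-3p_R+1 was 2.32 to 8.09 times as abundant as this form.

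**Figure D2:**
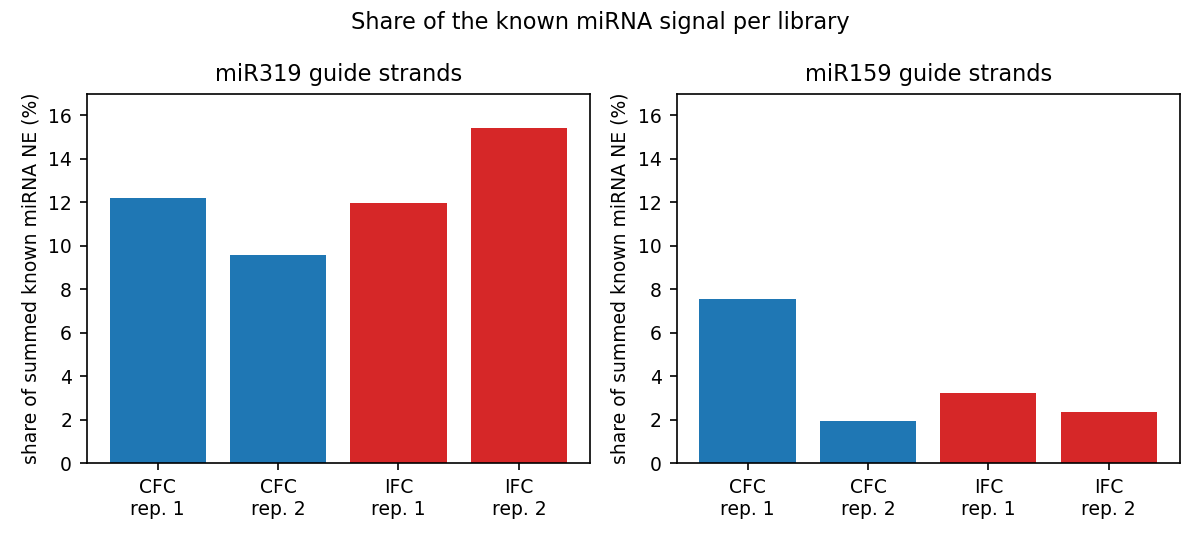
Share of the summed known miRNA NE of each library, in percent, held by the miR319 guides (left) and the miR159 guides (right), with 1 bar per library (blue CFC, red IFC). The miR319 share runs from 9.58% to 15.4% and overlaps between the phenotypes, and the miR159 share is highest in CFC replicate 1.

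The known miRNAs whose profile over the 4 libraries was most like that of zma-miR319a-3p_R+1 were sought among the 48 others with an NE above 10 in every library. Likeness was the root mean square difference of the centred log2(NE + 1) values, with a median of 0.50 over the 48. The closest were zma-miR396a-3p (0.16), zma-miR164g-3p (0.18) and zma-miR166i-5p (0.21). zma-miR396a-3p had an NE of 56.6 and 37.3 in CFC and of 27.5 and 56.5 in IFC, with the lowest value in IFC replicate 1 as for miR319. tae-miR319 was 12th in this order (0.38), zma-miR159c-3p_L-1R-1 35th (0.69) and zma-miR159a-3p 44th (0.93). The points share their libraries and totals, so this is a description of 4 libraries.

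The degradome entries listed sites for the miR319 guides in 3 TCP genes, the unannotated GRMZM2G412073 and 2 MYB genes. The site of the MYB gene GRMZM2G004090 had only 0.5 reads in CFC and 0 in IFC. The signal is given as TPB, the number of tags at a site scaled to the reads of the library. The highest TPB of sites listed as a single read gave the value of 1 read, 59.9 TPB in CFC and 59.1 TPB in IFC. Each phenotype had 1 library, so the ratios below have no replicate check, and their exact conditional 95% intervals cover counting error only. The number of tags depends on the level of the mRNA as well as on its cleavage, and mRNA levels were not analysed here.

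All 18 entries of the 4 genes, over 5 transcripts, were in category 0 in both libraries, meaning that the site was the single highest signal on its transcript. The entries repeat the same tags under several miRNA names, so each of the 4 genes holds a single distinct site. By comparison, 29 of all 131 distinct sites (22.1%), these 4 among them, were in category 0 in both. The 36 deposited p-values of these entries ran from 0.00234 to 0.0150. At all 18 entries the cleavage site lay opposite base 10 of the miRNA, as for 239 of the 275 pairs of gene and miRNA listed. All listed pairs had the site opposite base 9, 10 or 11, the positions the authors' pipeline was set to recognize. A site near base 10 was thus a condition of being listed. Of the 18 entries, 14 named a miR319 guide and 4 named miR159.

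GRMZM2G020805, a TCP gene matched by RefSeq to LOC100383331 on chromosome 2, was the most strongly tagged TCP mRNA. The signal was at position 1439 of transcript T01, with 2458 TPB or 41 reads in CFC and 2542 TPB or 43 reads in IFC. The IFC to CFC ratio was 1.03, with an interval of 0.658 to 1.63. This site ranked 9th of 131 by TPB in CFC and 6th in IFC.

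GRMZM2G089361, a TCP gene for which no RefSeq synonym was found, had fewer tags in IFC. At position 1326 there were 1199 TPB or 20 reads in CFC against 473 TPB or 8 reads in IFC. The CFC signal was 2.54 times the IFC signal, with an interval of 1.07 to 6.65. Relative to the median ratio of the 29 sites with at least 5 reads in each library, where IFC was 0.816 of CFC, the IFC to CFC ratio was 0.483 with an interval of 0.184 to 1.15. This interval includes equality.

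GRMZM2G015037, a TCP gene matched to LOC103634970 on chromosome 8, lay in the same direction. Its site, at position 1745 of T01 and 1604 of T02, had 929 TPB or 15.5 reads in CFC and 473 TPB or 8 reads in IFC. The CFC signal was 1.96 times the IFC signal. A count of 15.5 is not whole and has no exact interval, but with 15 or 16 reads in its place the interval would run from 0.757 to 5.18 or from 0.819 to 5.47. Both transcripts carry the same tags and count as 1 site.

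The sites as a whole, those of the 4 genes included, give the background to these ratios. Of the 45 distinct sites with at least 5 reads together and signal in both libraries, 13 (28.9%) were at least 1.5 times lower in IFC and 7 (15.6%) at least 1.5 times higher. The median IFC to CFC ratio of the 45 was 0.874. Equal signals in separate genes were counted separately here. GRMZM2G137451 and GRMZM5G848945 each had 8.67 reads in CFC and 4.67 in IFC. GRMZM2G061734 and GRMZM5G806833 each had a site with 1.5 reads in CFC and 6.5 in IFC. Whether such genes share tags was not tested. Of the 4 genes, 2 were at least 1.5 times lower in IFC and 0 were 1.5 times higher. Over the 3 TCP genes together there were 76.5 reads in CFC and 59.0 in IFC, a TPB ratio of 0.761. The sum over all 131 sites had a ratio of 0.789. That sum is dominated by the miR160 site of GRMZM2G159399, with 66723 TPB in CFC and 52379 in IFC. The next site had 17865 TPB in CFC. GRMZM2G020805 held 53.6% of the signal of the 3 TCP genes in CFC and 72.9% in IFC.

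**Figure D3:**
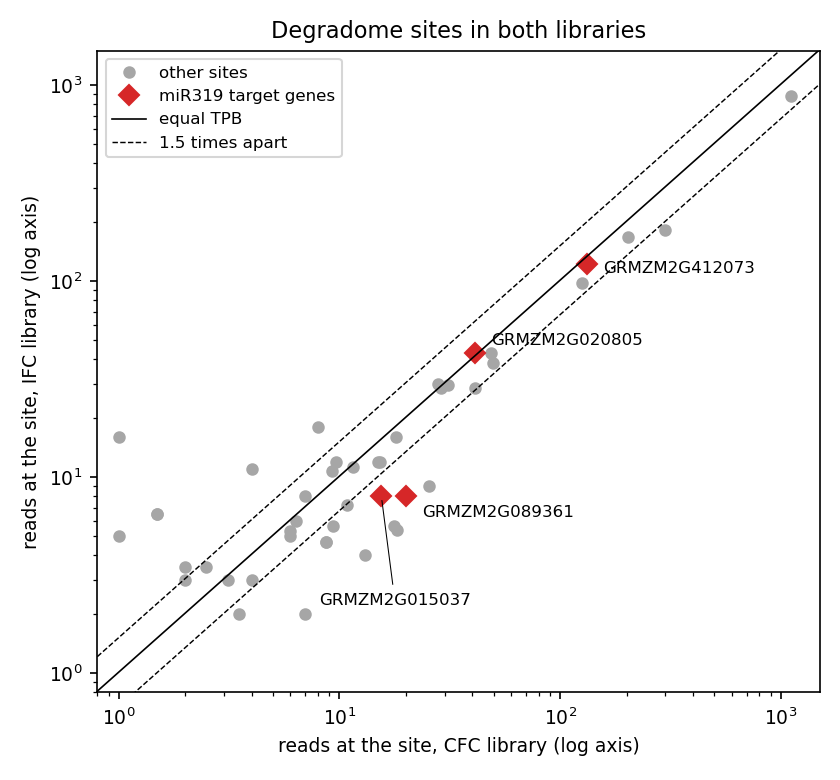
Reads at each degradome site in the CFC library (x) and the IFC library (y), both on log axes, for the 45 sites with at least 5 reads together and signal in both. Red diamonds are the 4 miR319 target genes, grey points the other sites, the solid line equal TPB and the dashed lines a difference of 1.5 times: GRMZM2G020805 and GRMZM2G412073 lie near equality, and GRMZM2G089361 and GRMZM2G015037 lie below the lower dashed line.

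The alignment score, a sum of penalties in which a lower value means closer complementarity, was lowest for the miR319 form with T at base 14 at 3 of the 4 genes and tied at GRMZM2G015037. At GRMZM2G089361 it was 1.5 for zma-miR319a-3p_R+1, 2.5 for tae-miR319, and 3.5 for both osa-miR319a-3p.2-3p_R+2_1ss14TA and zma-miR159c-3p_L-1R-1. At GRMZM2G020805 it was 2 for zma-miR319a-3p_R+1, 2.5 for tae-miR319 and 3.5 for zma-miR159c-3p_L-1R-1, and the osa form was not listed. At GRMZM2G015037 the first 2 both scored 3, the osa form 3.5 and zma-miR159c-3p_L-1R-1 4. The order of the scores was not the order of the tags: GRMZM2G089361 had the best score and GRMZM2G020805 the most reads among the TCP genes.

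Of the 5 miR159 names in the degradome entries, zma-miR159c-3p_L-1R-1 was the only one listed for a TCP gene. It was listed at the same position and with the same tags as the miR319 guides, so the tags cannot be divided between the families. Its score was higher than that of zma-miR319a-3p_R+1 by 1 to 2 at the 3 genes. At the TCP genes the aligned range was 1 base shorter than the miR319 guide in 8 of 8 pairs of gene and guide, a form seen in 49 of all 275 pairs.

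**Figure D4:**
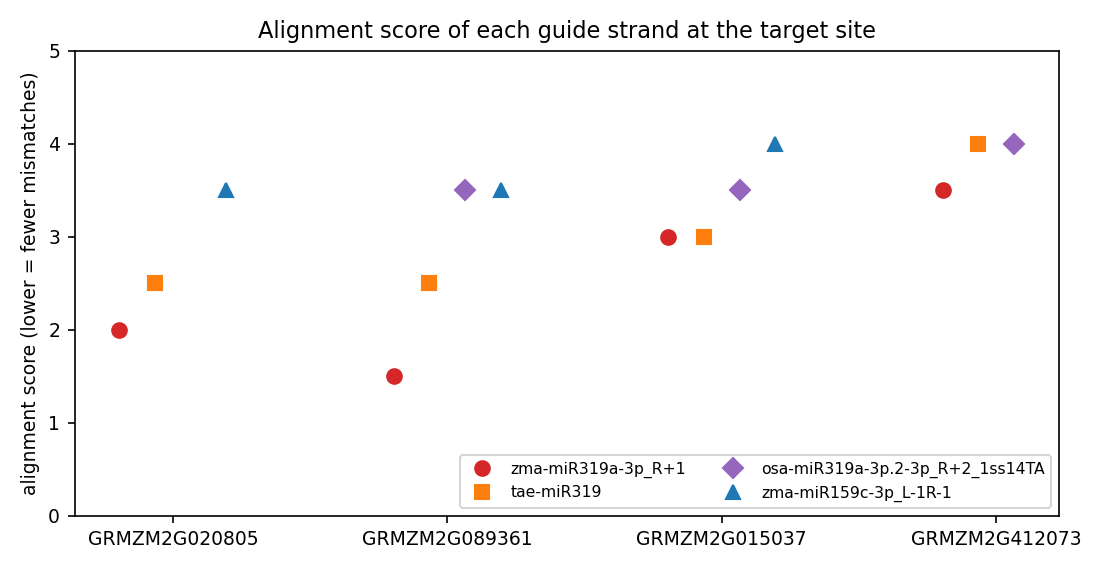
Deposited alignment score (y, lower for closer complementarity) of the miR319 guides and zma-miR159c-3p_L-1R-1 at the 4 target genes (x), with 1 symbol per miRNA and none where the pair was not listed. zma-miR319a-3p_R+1 has the lowest score at GRMZM2G020805, GRMZM2G089361 and GRMZM2G412073 and ties with tae-miR319 at GRMZM2G015037.

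GRMZM2G412073 gave more tags than the 3 TCP genes together. Its site, at position 242 of T01, had 7913 TPB or 132 reads in CFC and 7213 TPB or 122 reads in IFC, a ratio of 0.911 with an interval of 0.707 to 1.17. By TPB it ranked 4th of the 131 sites in each library, behind sites of miR160, miR396 and miR164. The miR319 guides were listed for it with scores of 3.5, 4 and 4, the weakest among their 4 genes, and miR159 was not listed. The deposited entries give it neither an annotation nor a transcription factor family.

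In RefSeq (assembly Zm-B73-REFERENCE-NAM-5.0) this identifier is a synonym of LOC100280042, a long noncoding RNA gene on chromosome 3, and the miRNA gene MIR319b lies inside it. MIR319b starts 210 bases after the start of LOC100280042 and is 213 bases long, as is the deposited chromosome 3 precursor of zma-miR319a-3p_R+1. Of the 113 target genes, 81 matched a RefSeq synonym, and GRMZM2G412073 was the only one of these that overlapped any of the 164 RefSeq miRNA genes. The most strongly tagged miR319 target therefore bears the name of a gene that encloses a miR319 locus.

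The deposited precursor is shown because it carries both the guide and a stretch complementary to it. Capitals mark the complementary stretch, bases 21 to 41, and then the guide, bases 175 to 195.
precursor of zma-miR319a-3p_R+1, chr3:2801742-2801954: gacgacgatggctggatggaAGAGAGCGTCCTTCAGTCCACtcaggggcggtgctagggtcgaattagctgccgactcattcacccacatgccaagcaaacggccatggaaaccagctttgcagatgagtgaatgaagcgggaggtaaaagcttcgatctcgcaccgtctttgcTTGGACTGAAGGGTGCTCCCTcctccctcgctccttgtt

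In the deposited fold of this precursor, 17 of the 21 guide bases pair with bases of that stretch. The best match to zma-miR319a-3p_R+1 in the 213 bases was this stretch, with 2 mismatches and 2 G:U pairs. Scored with 1 per mismatch and 0.5 per G:U pair, doubled at guide bases 2 to 13, it gave 3.5 for zma-miR319a-3p_R+1 and 4 for tae-miR319. These equal the deposited scores of both guides on GRMZM2G412073. The deposited alignment on the transcript ran from 231 to 251, which is 210 bases beyond 21 to 41 at both ends. The base opposite guide base 10 was 32 in the precursor and 242 in the transcript. The stretch is given below with capitals from the tagged base on.
bases 21 to 41 of the precursor: agagagcgtccTTCAGTCCAC

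The scores and offsets place the tags of GRMZM2G412073 within the 5′ arm of the miR319 precursor, opposite the guide. The transcript itself was not read, so this placement rests on positions, scores and the RefSeq names. The other precursors held a stretch of the same kind, at bases 8 to 28 and 6 to 26, which scored 4 for zma-miR319a-3p_R+1 and 3 for tae-miR319. Neither is among the deposited degradome entries. How these tags arose was not tested.

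**Figure D5:**
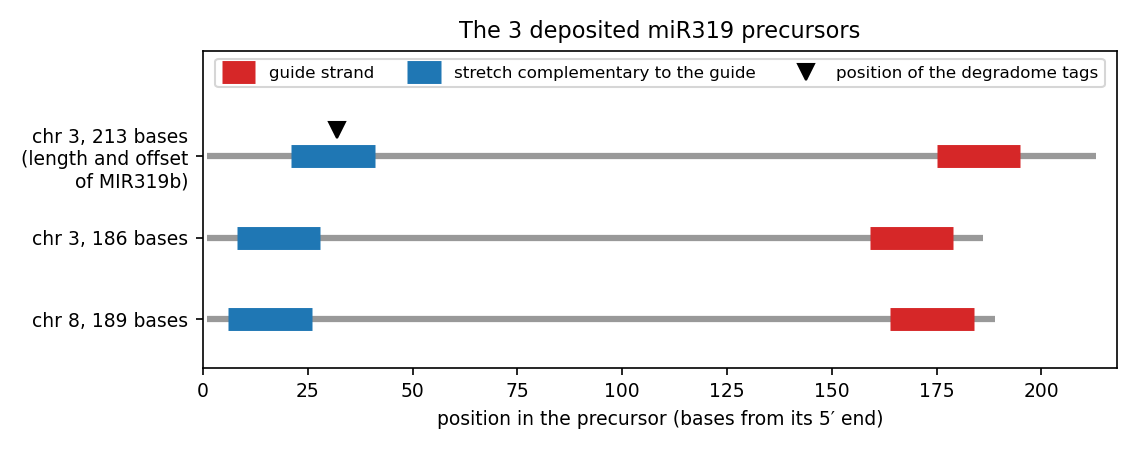
The 3 deposited miR319 precursors drawn to scale in bases from the 5′ end (x), with the guide strand in red and the stretch complementary to it in blue. The triangle at base 32 of the 213-base precursor marks the position that corresponds to base 242 of GRMZM2G412073 after an offset of 210 bases.

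The other genes listed for the miR319 guides were both MYB genes, the textbook target class of miR159. GRMZM2G028054, annotated as myb domain protein 65, had 9.67 reads in CFC and 12 in IFC at position 1703, an IFC to CFC ratio of 1.22. This site was listed for all 3 miR319 guides, with scores of 2, 2 and 2.5, and for zma-miR159c-3p_L-1R-1 with a score of 2. zma-miR159a-3p was listed 1 base downstream, at 1704, with a score of 3 and with 4 reads in CFC and 3 in IFC. GRMZM2G004090, annotated as myb domain protein 101, had 0.5 reads in CFC and 0 in IFC at the miR319 position, 1011, and 3.5 and 2 reads at the zma-miR159a-3p position, 1012. The scores at 1011 were 3.5 for zma-miR319a-3p_R+1, 2.5 for both A14 forms and 2 for zma-miR159c-3p_L-1R-1, so the T14 form scored worst of the miR319 guides there. Each miR319 position was thus shared with zma-miR159c-3p_L-1R-1 at the MYB genes as at the TCP genes.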

How the data were processed

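Values of known miRNAs and degradome sites were analysed in 4 small RNA and 2 degradome libraries, grouped by the labels. The authors cleaned the reads of adapter, junk, Rfam, repeat and exon sequence, matched 18 to 25 base reads to miRBase with ACGT101-miR and deposited NE, described as RPM over clean reads. The NE of 1 read, taken as the commonest low value, was 0.717, 0.879, 1.15 and 0.837 in CFC and IFC replicates 1 and 2, or 873087 to 1394658 reads. These totals are below the clean read totals the study gives, a mismatch that was not resolved, so the values in reads are conditional on that step. Of values under an NE of 50, only 66.3% to 73.8% were whole multiples of the step within 0.012 reads, so no count test was made. For the degradome, the authors ran CleaveLand on pooled samples and deposited the signal at each site as TPB, an alignment score, and a p-value per library, which was used as a description. TPB implied 16680835 reads in CFC and 16915044 in IFC. A genome build or transcript set was not given in the sources used here. Predicted targets and supplementary miRNA candidates were not used here.

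The 145 known miRNAs that passed an NE of 1 in any library entered a limma model (version 3.58.1, R 4.3.3; 13.7 prior and 2 residual degrees of freedom) on log2(NE + 1), as IFC minus CFC, two-sided, with Benjamini-Hochberg adjustment over all 145 and a threshold of 0.05. The fit was tested on simulated data. The p-values rest on the spread between 2 samples a group, drawn toward a spread pooled over the 145 miRNAs. Sites were counted once per gene and pair of TPB values, so equal signals in separate genes were counted separately. Genes were matched to RefSeq by synonym. Python 3.11.15 with pandas 2.3.3, scipy 1.17.1, numpy 2.4.6 and matplotlib 3.10.9 gave the remaining values and the figures. All miR319 guides and target genes are named, with the miR159 guides and the other genes of the miR319 guides for comparison, the 5p sequence and the 3 most alike miRNAs. Members, lists and tests were chosen with earlier results of these data known. The alternatives were other pseudocounts, filters, scalings, read minimums and folds, a fit with trend, a replicate block and leaving out each library.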

Additional observations from a re-analysis of the deposited data

How the results depend on the processing

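No known miRNA was called under any alternative of the limma fit, and the lowest adjusted p was 0.0594, with NE as a share of the known miRNA NE. That scaling, with 161 miRNAs tested, moved the median log2 fold change of all tested miRNAs from -0.02 to 0.28. zma-miR319a-3p_R+1 then stood at 0.33, tae-miR319 at 0.55 and the osa form at -1.87 ± 2.23 (SE) in place of -0.14. The pseudocount stayed at 1 although this scale gives far larger values, so the 0 of the osa form in IFC replicate 1 weighed more. Leaving out each library in turn gave log2 fold changes of -0.40 to 0.42 for zma-miR319a-3p_R+1, -0.59 to 1.04 for tae-miR319 and -0.20 to 0.57 for osa-miR319a-3p.2-3p_R+2_1ss14TA, and -0.40 to 0.43 for the summed guides. The direction of zma-miR319a-3p_R+1 turned to -0.17 without CFC replicate 2 and to -0.40 without IFC replicate 2. That of tae-miR319 turned without IFC replicate 2 (-0.59), and that of the osa form without IFC replicate 1 (0.57). The summed guides turned to -0.16 without CFC replicate 2 and to -0.40 without IFC replicate 2. The osa form gave no value with a filter at an NE above 5 or without IFC replicate 2, where it fell below the filter.

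With the replicate number as a block, 0 miRNAs were called and zma-miR319a-3p_R+1 was at 0.01 ± 0.78 (limma adjusted p = 0.999). Its SE was 0.47 in the fit with trend, and 0.86 and 0.43 with pseudocounts of 0.5 and 5, beside 0.79 in the main fit. Nothing in the sources ties equal numbers to 1 ear row, and the correlation of their deviations was 0.25 over 145 miRNAs. Separate phenotypes were counted for 20 of 100 miRNAs with an NE above 5, and for 74 to 92 with 1 library left out, where fewer values have to separate. Degradome sites past the fold numbered 20 in the report, 34 with at least 2 reads, 13 in category 0 and 12 at a fold of 2. Scaled to the median site or the summed sites, the log2 ratio of GRMZM2G412073 was 0.16 or 0.21 in place of -0.13, and that of GRMZM2G020805 0.34 or 0.39 in place of 0.05. GRMZM2G089361 and GRMZM2G015037 stayed at least 1.5 times lower in IFC under these scalings and with 1 read added. Of 83 alternative values, 6 fold changes or sums of the guides changed sign, all with a library left out, and 8 counts moved by more than 1.5 times. The sign changes of GRMZM2G412073 under scaling are not among these 6, because its main ratio was within 1.5 times of equality. With 1 degradome library per phenotype, biological spread is unknown there.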
